A study of Mus musculus with 2 samples.

Results

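A set of 10 immediate early genes encoding transcription factors was followed in the femoral growth plate of embryos from *Tric-b*-knockout mice. They were the AP-1 genes *Fos*, *Fosb*, *Fosl1*, *Fosl2*, *Jun*, *Junb* and *Jund*, the zinc finger genes *Egr1* and *Egr2*, and the nuclear receptor gene *Nr4a1*. The members were fixed by name, and every probe set annotated to 1 of these genes alone was taken. This gave 15 probe sets for 10 genes, out of 45037 probe sets and 18193 named genes on the array, and 0 probe sets of a member were shared with a second gene.

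The data came from 2 Affymetrix GeneChip Mouse Genome 430 2.0 arrays. One was hybridized with RNA of the plate portion holding columnar and hypertrophic chondrocytes, and the other with RNA of the portion enriched with round chondrocytes. Both portions were from E17.5 embryos that lacked TRIC-B, the ER cation channel encoded by *Tmem38b*, with C57BL/6J and 129Sv given as strains, and 3 RNA preparations were mixed for each array. All values compare the zones of knockout cartilage, and no value compares genotypes, since no wild-type array was used here. With 1 array per zone there was no replicate, and no difference has a test or an error between animals.

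Immediate early genes are transcribed within minutes of a stimulus, without the need for new protein synthesis. Growth factors, calcium entry and stress act on them through MAP kinases and other kinases. These kinases modify factors such as SRF, ELK and CREB that are already bound at the promoters of immediate early genes. FOS and JUN proteins pair through leucine zippers to form AP-1. EGR proteins bind GC-rich sites through zinc fingers, and NR4A proteins are orphan nuclear receptors that act without a known classical ligand. In growth plate cartilage, FOS and JUN family proteins are known for their roles in chondrocyte proliferation and hypertrophy. Their transcripts are short-lived and can also be induced by tissue handling.

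RefSeq promoter windows (GRCm38.p6) were found for 8 of the 10 members, all but *Fosl1* and *Egr1*. The 250 bases before the start site are shown for *Fos* and *Nr4a1*, which had the largest differences among the members with a window. *Junb*, with a smaller difference, and *Jun*, with little difference on its brighter probe set, are shown beside them. Capitals mark TGACG, the half-site of the CREB recognition element, and GCGNGGGCG, the EGR site, on either strand. The *Jun* window held neither and is in lower case throughout.
Fos, chr12:85473640-85473889, plus strand: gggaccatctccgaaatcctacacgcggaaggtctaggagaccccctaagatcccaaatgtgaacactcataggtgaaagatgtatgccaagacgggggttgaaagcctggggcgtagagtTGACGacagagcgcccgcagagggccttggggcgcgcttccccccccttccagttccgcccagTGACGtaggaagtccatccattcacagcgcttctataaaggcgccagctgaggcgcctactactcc
Nr4a1, chr15:101266596-101266845, plus strand: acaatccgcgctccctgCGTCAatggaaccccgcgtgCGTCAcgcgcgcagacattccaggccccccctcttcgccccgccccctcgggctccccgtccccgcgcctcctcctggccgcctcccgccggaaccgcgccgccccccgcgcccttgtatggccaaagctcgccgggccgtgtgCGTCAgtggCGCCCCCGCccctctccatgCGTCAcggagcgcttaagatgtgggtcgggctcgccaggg
Junb, chr8:84978749-84978998, minus strand: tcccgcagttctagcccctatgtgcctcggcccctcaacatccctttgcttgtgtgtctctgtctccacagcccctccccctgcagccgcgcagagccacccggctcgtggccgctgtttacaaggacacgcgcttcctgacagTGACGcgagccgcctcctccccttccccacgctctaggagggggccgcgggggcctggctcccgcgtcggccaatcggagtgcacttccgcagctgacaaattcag
Jun, chr4:95052223-95052472, minus strand: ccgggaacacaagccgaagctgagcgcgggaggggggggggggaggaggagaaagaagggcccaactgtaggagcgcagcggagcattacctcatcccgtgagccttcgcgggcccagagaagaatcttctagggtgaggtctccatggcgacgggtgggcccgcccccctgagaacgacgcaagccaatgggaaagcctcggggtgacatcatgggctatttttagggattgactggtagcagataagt

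TGACG lay in the windows of 5 of the 8 members, namely *Fos*, *Fosb*, *Junb*, *Egr2* and *Nr4a1*, against 17.8% of all 32851 windows of this length. *Fos* held 2 matches, with the nearer one at positions -66 to -62 from the start site, and *Nr4a1* held 4 matches, with the nearest at -40 to -36. GCGNGGGCG lay in the windows of 3 members, *Fosb*, *Fosl2* and *Nr4a1*, against 4.70% of all windows. *Fosb*, whose window is not printed here, thus held both patterns, and its log2 difference between the zones was 0.005. A relation of the matches to the zone differences was not tested. The CArG box, which SRF binds, was found for 1 member, *Egr2*, against 1.47% of all windows. Exact matches to the full palindrome TGACGTCA, which holds TGACG on each strand, to the AP-1 pattern TGANTCA and to the NR4A half-site AAGGTCA were found in 0 of these windows. They lay in 1.55%, 6.75% and 4.08% of all windows. *Egr2* had 5 windows, and a match in any of them was counted. These matches describe letters only, and binding was not measured. Bases farther upstream and other spellings were not searched, such as the letters TGACATCA in the *Jun* window. A member without a match here may thus hold a site elsewhere, and *Egr1* and *Fosl1* had no window to search.

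The signal of a probe set was deposited as a linear value without unit. Signals at or under 65.9, the 40th percentile over both arrays, were taken as not detected, and this limit is called the floor. Differences are log2 signals of the columnar/hypertrophic specimen minus those of the round specimen. Genes with both signals at or under it were left uncompared. The zone labels were set against marker genes. Of 8 compared columnar and hypertrophic genes, 8 were 2-fold or more higher in the columnar/hypertrophic specimen, and *Ihh*, the Indian hedgehog gene, had signals of 3900 there and 87.8 in the round specimen. Of 7 compared genes of round or joint-side chondrocytes, 6 were 2-fold or more lower in the columnar/hypertrophic specimen. The exception was *Sfrp5*, a secreted Wnt inhibitor gene, with 1244 in the columnar/hypertrophic and 1177 in the round specimen. The 7 general cartilage genes, *Sox9* and *Acan* among them, had a median log2 difference of 0.01. The mean signal of the array with the outer 2% trimmed at each end was 496 in the columnar/hypertrophic and 497 in the round specimen. MAS5, the processing named by the submitters, scales each array on its own. The near-equal trimmed means can thus be set by that scaling, and they are no check of the zones.

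*Egr1* showed by far the widest gap of the members. The gene encodes a zinc finger activator that responds to growth factors and to mechanical load. Its single probe set (1417065_at) had a signal of 221 in the columnar/hypertrophic specimen and 3559 in the round specimen, a log2 difference of -4.01, or 16.1-fold lower in the columnar/hypertrophic specimen. Only 9 of the 12714 compared genes, *Egr1* included, had a difference this low or lower. The gene had no second probe set against which the value could be set. *Egr2*, its relative best known from hindbrain and Schwann cells, lay under the floor in both arrays. Its probe set 1427683_at had 23.9 in the columnar/hypertrophic and 49.9 in the round specimen, and 1427682_a_at had 12.6 and 19.1 in the same order. *Egr1* was thus the only EGR gene among the members with a signal above the floor.

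*Nr4a1* encodes NUR77, an orphan nuclear receptor, and had the 4 TGACG matches described for its promoter window. Its probe set (1416505_at) gave 243 in the columnar/hypertrophic specimen and 627 in the round specimen, a log2 difference of -1.37, or 2.58-fold lower in the columnar/hypertrophic specimen.

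Within the FOS family, *Fos* alone differed by 2-fold. Its probe set (1423100_at) had a signal of 1509 in the columnar/hypertrophic specimen and 3614 in the round specimen, a log2 difference of -1.26, or 2.39-fold lower in the columnar/hypertrophic specimen. *Fosl2*, encoding FRA-2, was detected on both of its probe sets, with signals that differed by less than 2-fold. The brighter (1437247_at) gave 607 in the columnar/hypertrophic and 484 in the round specimen, and the dimmer (1422931_at) gave 134 and 140 in that order. The log2 differences were 0.33 and -0.06, so the probe sets of *Fosl2* lay on opposite sides of zero. *Fosb*, known for its stable splice product ΔFOSB in neurons, stood just above the floor, with 82.2 in the columnar/hypertrophic and 81.9 in the round specimen. *Fosl1*, encoding FRA-1, lay under the floor in both arrays. Its brighter probe set (1417488_at) had 13.1 in the columnar/hypertrophic and 59.1 in the round specimen, and its other probe set (1417487_at) had 4.81 and 8.61 in that order.

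The JUN genes encode the AP-1 subunits that also pair with each other, and 0 of them differed by 2-fold. *Jund*, the most constitutive of the family, gave 5567 in the columnar/hypertrophic and 4373 in the round specimen on 1449117_at, a log2 difference of 0.35. Its second probe set (1440265_at) lay under the floor, with 22.4 in the columnar/hypertrophic and 58.0 in the round specimen. *Jun* had 884 in the columnar/hypertrophic and 943 in the round specimen on its brighter probe set (1417409_at), a log2 difference of -0.09. The dimmer probe set of *Jun* (1448694_at) gave 209 in the columnar/hypertrophic and 333 in the round specimen, a log2 difference of -0.67. Both *Jun* probe sets thus had the lower signal in the columnar/hypertrophic specimen, by unequal amounts. *Junb* had 72.4 in the columnar/hypertrophic and 139 in the round specimen on its single probe set (1415899_at). Its log2 difference of -0.94 fell short of the 2-fold rule, and the columnar/hypertrophic signal was close to the floor.

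**Figure D1:**
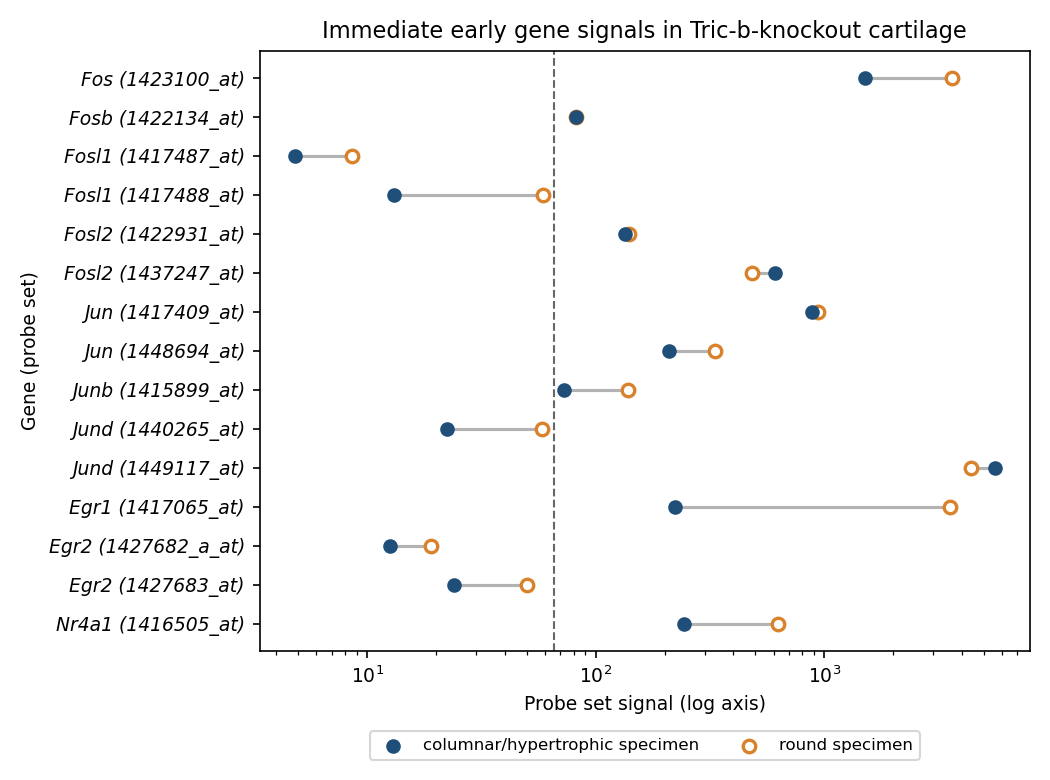
Signals of all 15 member probe sets (log axis) in the columnar/hypertrophic specimen (filled circles) and the round specimen (open circles), 1 array per zone. The dashed line is the floor of 65.9, the *Egr1* signals lie at 221 in the columnar/hypertrophic and 3559 in the round specimen, and 5 probe sets lie under the floor in both.

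Taking the brightest probe set for each gene, 8 of the 10 members were compared, and each of these 8 was above the floor in both arrays. Of them, 3 (*Egr1*, *Nr4a1* and *Fos*) were 2-fold or more lower in the columnar/hypertrophic specimen, or 37.5%, against 6.17% of the 12714 compared genes. In the other direction, 0 of the 8 were 2-fold or more higher in the columnar/hypertrophic specimen, against 4.26% of all compared genes. By probe sets, 3 of 10 compared were 2-fold or more lower in the columnar/hypertrophic specimen, against 6.24% of 29258, and 0 were 2-fold or more higher there, against 3.58%. Of all genes past 2-fold, 40.8% were higher in the columnar/hypertrophic specimen as deposited and 53.0% after lowess centring. The median log2 difference of the 8 members was -0.52, and that of all compared genes was -0.04. *Jun*, *Fosl2*, *Fosb* and *Jund* lay between -0.09 and 0.35, inside the middle 90% of all genes, which ran from -1.11 to 0.92. *Junb* lay inside that range too, whereas *Fos* and *Nr4a1* lay below it but inside the middle 95%, from -1.44 to 1.30, and *Egr1* lay outside both.

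**Figure D2:**
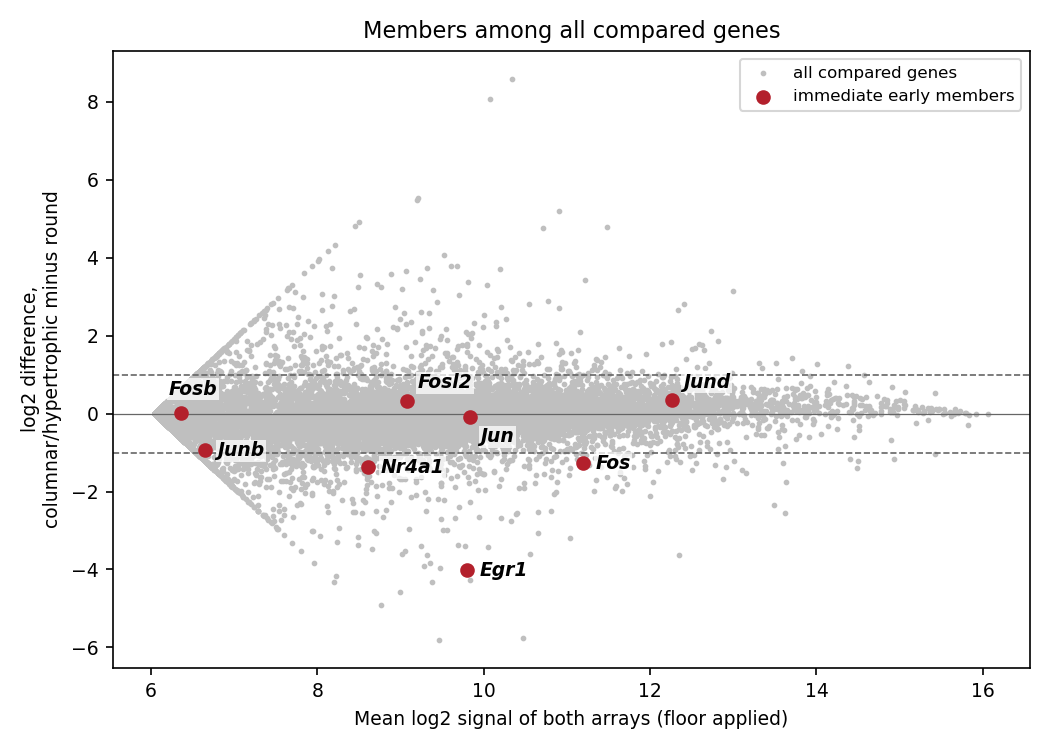
The log2 difference, columnar/hypertrophic minus round, of 12714 compared genes (grey) and of the 8 compared members (red) against the mean log2 signal of both arrays, with values under the floor set to it. Dashed lines mark 2-fold, and *Egr1* at -4.01 stands well below the other members, which run from -1.37 to 0.35.

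The differences of *Egr1*, *Nr4a1* and *Fos* kept their side of the 2-fold rule under each of the 3 other scalings. Over median centring, quantile normalization and lowess centring, *Egr1* ran from -3.96 to -3.92, *Nr4a1* from -1.27 to -1.21 and *Fos* from -1.31 to -1.17. Under a 3-fold rule *Egr1* alone passed. With the floor at the 20th percentile, *Fosl1* and *Egr2* entered the comparison at -1.38 and -1.06, of which the first is a bound. Of the 10 members, 5 were then 2-fold or more lower in the columnar/hypertrophic specimen. Over all genes the number lower there rose as well, from 785 to 1486, among a larger number of compared genes. Without a floor, 5 of the 10 members and 2524 of all 18193 genes were lower there by as much. The SD between probe sets of the same gene, pooled over 5446 genes, was 0.34 on the log2 scale, and it holds no variation between animals.

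**Figure D3:**
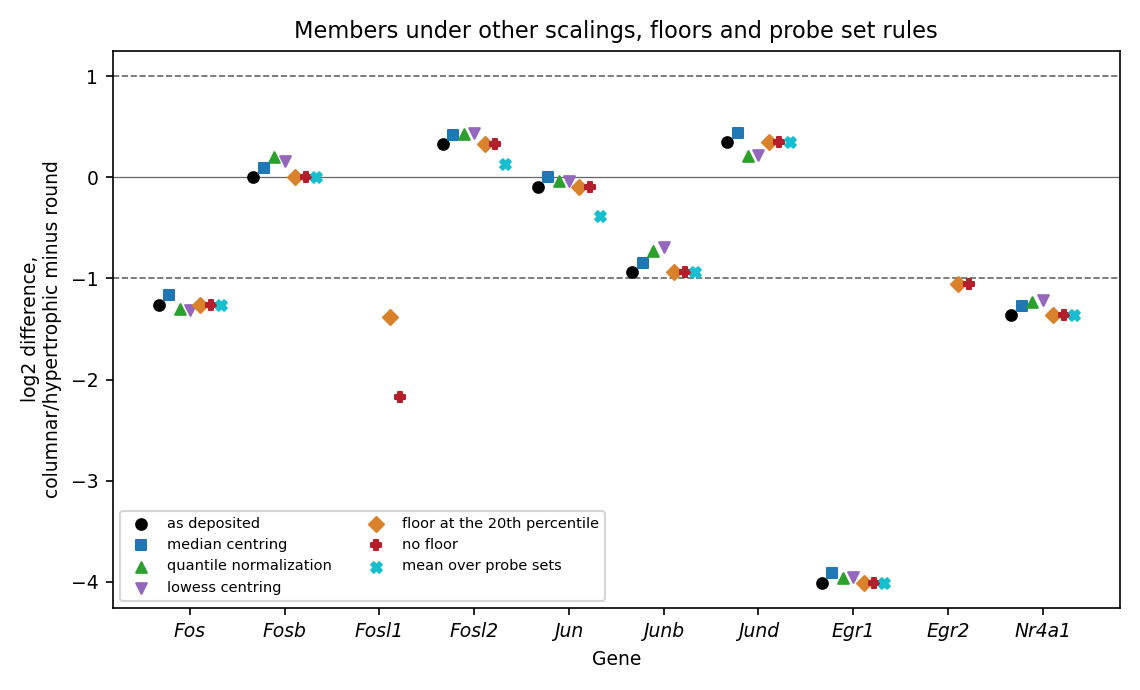
The log2 difference, columnar/hypertrophic minus round, of each member as deposited and under 6 other settings, 1 array per zone. Dashed lines mark 2-fold, *Egr1*, *Nr4a1* and *Fos* stay below the lower line in every setting drawn, and *Fosl1* and *Egr2* have values only with a lower floor or none.

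Other immediate early genes did not lie on one side. Of 32 listed genes 30 were compared, of which 5 were 2-fold or more lower in the columnar/hypertrophic specimen and another 5 were higher by as much, 16.7% each, with a median log2 difference of -0.07. Of all compared genes, 6.17% were lower and 4.26% higher by as much. After quantile normalization or lowess centring, 3 of the listed genes were 2-fold or more lower. Those lower were *Socs3*, a brake on cytokine signalling (-1.80), *Zfp36l1*, an mRNA decay factor (-1.47), *Nr4a2* (-1.35), the pseudokinase gene *Trib1* (-1.13) and *Csrnp1* (-1.08). *Nr4a2*, encoding the NUR77 relative NURR1, had 268 in the columnar/hypertrophic and 686 in the round specimen on its brightest probe set. Its 5 compared probe sets of 6 ran from -1.35 to -0.0016, so the difference rests on the probe set chosen. The *Socs3* signal was 126 in the columnar/hypertrophic and 438 in the round specimen. Its 3 probe sets ran from -3.0, a bound with the columnar/hypertrophic signal under the floor, to -1.80.

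Higher in the columnar/hypertrophic specimen were *Ptgs2*, *Atf3*, *Sgk1*, *Myc* and *Gadd45b*. *Ptgs2*, the inducible cyclooxygenase gene, had 330 in the columnar/hypertrophic specimen and lay under the floor at 52.2 in the round specimen, at least 5.01-fold higher. *Atf3*, whose product pairs with JUN proteins and is also induced in the ATF4 pathway, had 491 in the columnar/hypertrophic and 149 in the round specimen, a log2 difference of 1.72. The log2 differences were 1.49 for the kinase gene *Sgk1*, 1.32 for the growth regulator *Myc* and 1.24 for *Gadd45b*, a stress-induced gene. The 3 probe sets of *Gadd45b* ran from 0.50 to 1.53. *Ier2*, an immediate early response gene often measured with *Fos*, had 693 in the columnar/hypertrophic and 1254 in the round specimen, a log2 difference of -0.86. *Dusp1*, encoding a MAP kinase phosphatase, had 432 and 516 in the same order. Of the remaining EGR and NR4A genes, *Egr3* had 134 in the columnar/hypertrophic and 143 in the round specimen on its brighter probe set. Its dimmer probe set gave 23.0, under the floor, in the columnar/hypertrophic and 129 in the round specimen, so the log2 differences of *Egr3* were -0.09 and, as a bound, -0.97. *Egr4* and *Nr4a3* lay under the floor in both.

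**Figure D4:**
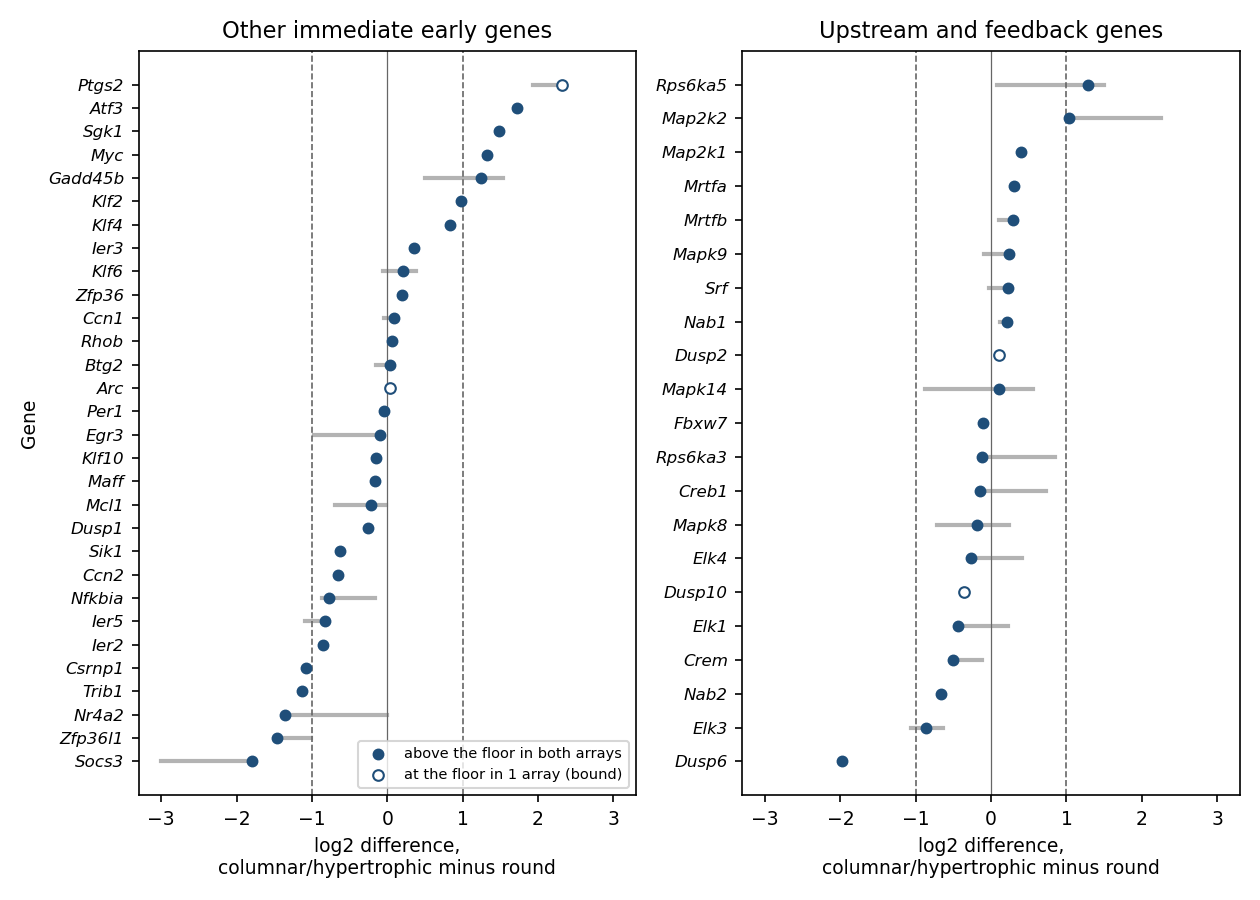
The log2 difference, columnar/hypertrophic minus round, of 30 compared other immediate early genes (left) and 21 compared upstream and feedback genes (right). Circles are the brightest probe set of each gene, grey bars span all its compared probe sets, open circles are bounds with 1 array at the floor, and dashed lines mark 2-fold.

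Of 21 compared genes that act upstream of the members or feed back on them, 1 was 2-fold or more lower and 2 were higher by as much in the columnar/hypertrophic specimen, with a median of -0.11. These were 4.76% lower and 9.52% higher, near the 6.17% and 4.26% of all compared genes. *Dusp6*, encoding the phosphatase that reverses ERK activation and is itself induced by ERK, had 142 in the columnar/hypertrophic and 561 in the round specimen, a log2 difference of -1.98. *Map2k2*, encoding the ERK kinase MEK2, had 1883 in the columnar/hypertrophic and 918 in the round specimen, and *Rps6ka5*, encoding MSK1, which phosphorylates CREB, had 533 and 218 in that order. The 3 probe sets of *Rps6ka5* ran from 0.07, a bound with the round signal under the floor, to 1.5. *Srf*, the serum response factor gene, had 554 in the columnar/hypertrophic and 473 in the round specimen. *Nab2*, encoding a corepressor that binds EGR1 and is induced by it, had 339 in the columnar/hypertrophic and 536 in the round specimen, a log2 difference of -0.66. This gene was named after its value was seen, and *Nab1* of the same list was at 0.21.

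Among 14 compared bZIP genes whose products can pair with FOS or JUN proteins, or with their relatives, 0 were 2-fold or more lower and 2 were higher by as much in the columnar/hypertrophic specimen. The shares were 0% lower and 14.3% higher, against 6.17% and 4.26% of all compared genes. *Batf3*, a JUN partner best known from dendritic cells, had 1109 in the columnar/hypertrophic and 117 in the round specimen, a log2 difference of 3.25, or 9.49-fold higher. The other was *Atf3*, given above, and the median of the list was 0.16. Genes described as AP-1 or EGR targets in cartilage or elsewhere had a median of 0.35, with 0 of 15 compared genes 2-fold or more lower and 5 higher by as much in the columnar/hypertrophic specimen. The higher ones were *Col10a1*, *Tgfb1*, *Ibsp*, *Plaur* and *Hmox1*, or 33.3% of those compared, against 4.26% of all compared genes. *Plaur*, the urokinase receptor gene, had 344 in the columnar/hypertrophic and 144 in the round specimen. *Col10a1* and *Ibsp* also mark the columnar and hypertrophic zone. The 2 probe sets of *Tgfb1* gave -0.26 and 1.75. *Mmp13*, the collagenase gene of late hypertrophic cells, lay under the floor with 63.4 in the columnar/hypertrophic and 13.3 in the round specimen.

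Genes of other cells and of tissue handling were set beside the members. Over all compared genes, 6.17% were 2-fold or more lower and 4.26% higher by as much in the columnar/hypertrophic specimen. The 14 compared heat shock and chaperone genes held some that respond to handling along with *Fos* and *Jun*. Another of them, *Hspa5*, encodes the ER chaperone BiP. Of the 14, 0 were 2-fold or more lower and 1 (*Hspb1*) higher by as much in the columnar/hypertrophic specimen, with a median of 0.24. Lower there by less than 2-fold were *Hspa1a* (-0.70), *Dnajb4* (-0.64) and *Dnajb1* (-0.16), and the other 11 had the higher signal there. Genes of perichondrium, tendon and fibroblasts were 2-fold or more lower in the columnar/hypertrophic specimen for 9 of 14 compared genes, with a median of -1.33. Their 15 signals summed to 73224 in the columnar/hypertrophic and 158935 in the round specimen, with *Col3a1* at 5232 and 30420 in that order. The probe set of *Scx* with the higher mean log2 signal was under the floor in both, and its other probe set had 6.03 in the columnar/hypertrophic and 79.2 in the round specimen. Endothelial genes summed to 474 over 9 genes in the columnar/hypertrophic and 904 in the round specimen, with *Tek*, *Tie1* and *Vwf* under the floor in both. Of 6 compared, 2 (*Eng* and *Esam*) were 2-fold or more lower in the columnar/hypertrophic specimen and 0 higher by as much, with a median of -0.49. *Eng* had 106 in the columnar/hypertrophic and 411 in the round specimen. Of the 10 myeloid and osteoclast genes, 5 lay under the floor in both arrays, *Ptprc* among them, and the sums were 1929 in the columnar/hypertrophic and 1693 in the round specimen. The 5 compared of 12 skeletal muscle genes all had the higher signal in the columnar/hypertrophic specimen, 2 of them by 2-fold or more. These were *Tnnt3*, with 409 in the columnar/hypertrophic and 26.3, under the floor, in the round specimen, and *Acta1*, with 291 and 112 in that order. The 12 muscle signals summed to 1220 in the columnar/hypertrophic and 429 in the round specimen, and 7 genes, *Myog* among them, lay under the floor in both on their brightest probe set. A second *Ckm* probe set reached 68.2 in the columnar/hypertrophic specimen. The 2 probe sets of *Des* lay on opposite sides, at -1.08 and 0.57, both bounds with 1 array at the floor. Of 4 erythroid genes 3 lay under the floor in both arrays. Of 6 compared osteoblast genes 3 were 2-fold or more higher and 1 was lower by as much in the columnar/hypertrophic specimen, with a median of 1.0. Among them *Sp7* (Osterix) had 1342 in the columnar/hypertrophic and 141 in the round specimen, whereas *Col1a1*, which is also in the perichondrial list, had 342 and 1583 in that order. The part of these cells and of tissue handling in the lower *Egr1*, *Nr4a1* and *Fos* signals of the columnar/hypertrophic specimen was not tested. In bulk RNA, fewer cells of a type and less RNA per cell cannot be told apart.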

How the data were processed

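The values deposited by the authors were probe set intensities on a linear scale, 1 column for each of 2 arrays. MAS5 is named in the submitters' processing notes (version not given in the sources used here). The methods name robust multiarray analysis for heatmaps, but the deposited numbers are not log values. The deposited intensities reached 68899 and were used as deposited. MAS5 scales each array on its own, so a shift common to most genes is removed. Of 45037 probe sets, 34945 had 1 gene symbol, 932 several and 9160 none in the platform annotation. For each gene the brightest probe set by mean log2 intensity was used. The floor was fixed at the 40th percentile, and differing genes were counted by a 2-fold rule, without a test.

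The members and gene lists were chosen with earlier results of these data known. All members were named on all probe sets. From other lists, genes past 2-fold (up to 8 per list) and *Egr3*, *Egr4*, *Nr4a2*, *Nr4a3*, *Atf3*, *Srf*, *Dusp1* and *Ier2* were selected. *Nab2*, *Mmp13* and some markers were added after their values were seen. Of 29 upstream, 18 bZIP, 24 target and 16 heat shock genes listed, 23, 16, 21 and 14 had a probe set of their own. Alternatives were 3 other scalings, a 3-fold rule, omitting the floor or moving it to the 20th or 60th percentile, averaging the probe sets of a gene and keeping specific probe sets. The number of arrays limits the precision. The steps were tested on simulated data. Calculations ran in Python 3.11.15 with pandas 2.3.3, numpy 2.4.6 and, for lowess with a span of 0.3, statsmodels 0.14.6. Figures were drawn with matplotlib 3.10.9.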

Additional observations from a re-analysis of the deposited data

How the results depend on the processing

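No paired analysis was possible because a zone was measured on 1 array only. Of the values and counts for the lists and for all genes, 161 stayed within the tolerance and 37 moved, and all 62 values of single compared members stayed within it. Many of these 62 are no check. The other floors and the specific probe sets returned the same value for each of these members that kept one. Averaging probe sets changed *Jun* and *Fosl2* only. The tolerance was the pooled probe set SD of 0.34 for log2 differences and a factor of 1.5 for counts. The causes were not tested, beyond the construction of looser or stricter rules.

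The members 2-fold or more lower in the columnar/hypertrophic specimen numbered 5 both with a 20th percentile floor and without a floor, where their median was -1.0, and 1 under the 3-fold rule. Without a floor, 2524 of all 18193 genes were lower there by as much. *Fosl1* and *Egr2* were added at -1.38 and -1.06 by the lower floor, and at -2.17 and -1.06 with no floor. With the floor at the 60th percentile, *Fosb* and *Junb* had no value.

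Other immediate early genes lower in the columnar/hypertrophic specimen numbered 3 after quantile normalization, 3 after lowess centring, 3 with the 60th percentile floor and 1 under the 3-fold rule, which left 2 higher there. Upstream and feedback genes lower there numbered 2 both with a 20th percentile floor and without a floor, and those higher there 1 with the mean over probe sets and 0 under the 3-fold rule. The bZIP genes lower there numbered 1 with the mean over probe sets. Target genes lower there numbered 1 with the 20th percentile floor and 2 without a floor, and those higher there 2 with the 60th percentile floor and 3 under the 3-fold rule. Heat shock genes higher there numbered 0 on specific probe sets and under the 3-fold rule.

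Over all probe sets, calls higher in the columnar/hypertrophic specimen numbered 2369 with the 20th percentile floor, 601 with the 60th, 5074 with no floor and 385 under the 3-fold rule. Those lower there numbered 3936, 801, 7128 and 572 in that order. Over all genes, those higher there numbered 1038, 342, 1940 and 211, and those lower there 1486, 402, 2524 and 263. Of probe sets past 2-fold, the share higher there was 36.4% as deposited, 48.6% after quantile normalization and 52.3% after lowess centring. The direction of *Egr1*, *Nr4a1*, *Fos* and *Junb* was the same in every alternative that gave a value. Each of these genes has a single probe set, above the floor in both arrays, and only the 3 other scalings changed its value.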
